A study of Mus musculus with 2 samples.

Results

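The genes described here are 9 secreted proteins of the cartilage matrix, *Acan*, *Hapln1*, *Matn1*, *Matn2*, *Matn3*, *Matn4*, *Mia*, *Ucma* and *Cytl1*, measured in single cells of the mouse coronal suture. They were taken by symbol, and all 9 were listed in both matrices, among 31053 genes at E15.5 and 27998 in the E17.5 library. Cells came from wildtype embryos of the strain labelled C57/BL6 and were barcoded on the Chromium 3′ platform of 10x Genomics, with 1 deposited matrix (library) per stage. The E15.5 library pools 10 coronal sutures dissociated with collagenase II and dispase and depleted of dead cells, and the E17.5 library pools 16 sutures of 2 litters, dissociated with collagenase IV in 3 batches and sorted by FACS. The libraries were also sequenced at different sites and to different depths, and their gene lists differ. Stage, embryos, enzyme, sorting, sequencing and gene list therefore differ together and cannot be told apart. With 1 library per stage no test between samples was possible.

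Each level is the number of unique molecular identifiers (UMIs) of a gene summed over a group of cells and divided by all UMIs of that group, scaled to 1000000 UMIs (CPM), with an exact Poisson 95% interval. These intervals describe counting error alone. Embryos cannot be separated. The study states that the 3 E17.5 batches were sorted and made into libraries separately. The deposited E17.5 matrix holds 3 barcode suffixes, but no label assigns them to the batches. The authors' labels place 5335 cells at E15.5 and 6830 in the E17.5 library in 15 clusters of meninges (MG1 to MG4), osteogenic cells (OG1 to OG4), proliferating osteogenic cells (PO1 and PO2), ectocranial mesenchyme (EC1 to EC4) and a ligament-like population (LIG). MG1 and MG2 are the clusters that the study places in the dura mater next to the bone. The clusters were defined by the authors on all genes of the same cells, so a difference between clusters is a description and no independent test. Summed over *Gja1*, *Fxyd5*, *Crabp2* and *Nppc*, 4 dura markers, E15.5 cells of MG1 and MG2 had 1420 and 1516 CPM and E17.5 cells 430 and 1107 CPM, against 485 and 374 CPM in all labelled cells. These markers were higher in MG3, with 3256 and 3742 CPM, and in MG4, with 3120 and 2923 CPM, so that MG1 and MG2 are called by their cluster names below. In MG1 at E17.5 only 1 of these 4 markers was at least 2-fold above the other labelled cells. Summed over the ligament markers *Scx*, *Tnmd* and *Mkx*, MG1 had 229 CPM at E15.5 and 772.5 in the E17.5 library, MG2 135 and 182 and LIG 621 and 804 CPM, against 130 and 226 CPM in all labelled cells. Of these 3 markers, 1 was at least 2-fold above the other labelled cells in MG1 at E17.5 and none was at 0 there.

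A pair of reference groups was taken from cells without a label. The chondrocyte reference comprises the 1195 cells at E15.5 and 181 cells in the E17.5 library that passed the cell limits with 10 or more *Matn1* UMIs, so that *Matn1* itself is no result there. Of 10 other chondrocyte markers, 10 at E15.5 and 9 in the E17.5 library were at least 2-fold above the labelled cells in it. Macrophages, which are not known to make cartilage matrix, were the 323 and 579 unlabelled cells with 10 or more UMIs of *C1qa*, *C1qb* and *C1qc* together, and their level serves as the background. The median depth was 7187.5 UMIs per cell in MG1 and MG2 together, 9600 in macrophages and 11652 in the reference for E15.5, and 10577.5, 9850 and 11347 for E17.5. Between the libraries 94 cell barcodes were shared, and between pairs of the 3 barcode suffixes of E17.5, from 8 to 20.

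Cartilage matrix is a gel of proteoglycan held in a collagen network. Aggrecan carries the sulfated sugar chains that bind water, link protein fastens it to hyaluronan, and matrilins are adaptors that connect collagen fibrils and proteoglycans. Of the matrilins, *Matn1* and *Matn3* are known chiefly from cartilage, whereas *Matn2* and *Matn4* are also made in other connective tissues. *Mia*, *Ucma* and *Cytl1* encode small secreted proteins known mainly from chondrocytes.

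The 250 bases before the transcription start of *Matn4* and *Matn1* are shown because this pair of matrilin genes parted in MG1 and MG2, *Matn4* high there and *Matn1* at the level of other cells. *Matn4* lies on the minus strand of chromosome 2 (164389393 to 164405160, GRCm38) and *Matn1* on the plus strand of chromosome 4 (130944385 to 130955475). Sequences are those of RefSeq for GRCm38.p6, 5′ to 3′ in the direction of the gene, and 8 of the 9 genes had an entry.
*Matn4*, chr2:164405161-164405410, minus strand: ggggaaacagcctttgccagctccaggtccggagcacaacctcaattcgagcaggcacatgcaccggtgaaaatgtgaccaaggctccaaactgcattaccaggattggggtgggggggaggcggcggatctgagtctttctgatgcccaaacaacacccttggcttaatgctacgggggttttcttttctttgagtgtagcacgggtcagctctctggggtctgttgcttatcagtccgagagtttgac
*Matn1*, chr4:130944135-130944384, plus strand: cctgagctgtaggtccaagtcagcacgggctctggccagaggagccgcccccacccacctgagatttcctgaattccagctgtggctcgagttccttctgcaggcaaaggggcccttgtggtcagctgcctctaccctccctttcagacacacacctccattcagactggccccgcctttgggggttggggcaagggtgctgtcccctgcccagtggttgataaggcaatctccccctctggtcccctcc
The letters ACAAAG and ACAATG, a core that SOX proteins are known to bind, were searched on both strands. They were found in 0 of the 9 windows of the 8 genes, where *Matn4* has a second start, and in 25% of 32536 windows of the same length. Both sequences are therefore in lower case throughout, and the search says only that these letters are not in these windows.

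**Figure D1:**
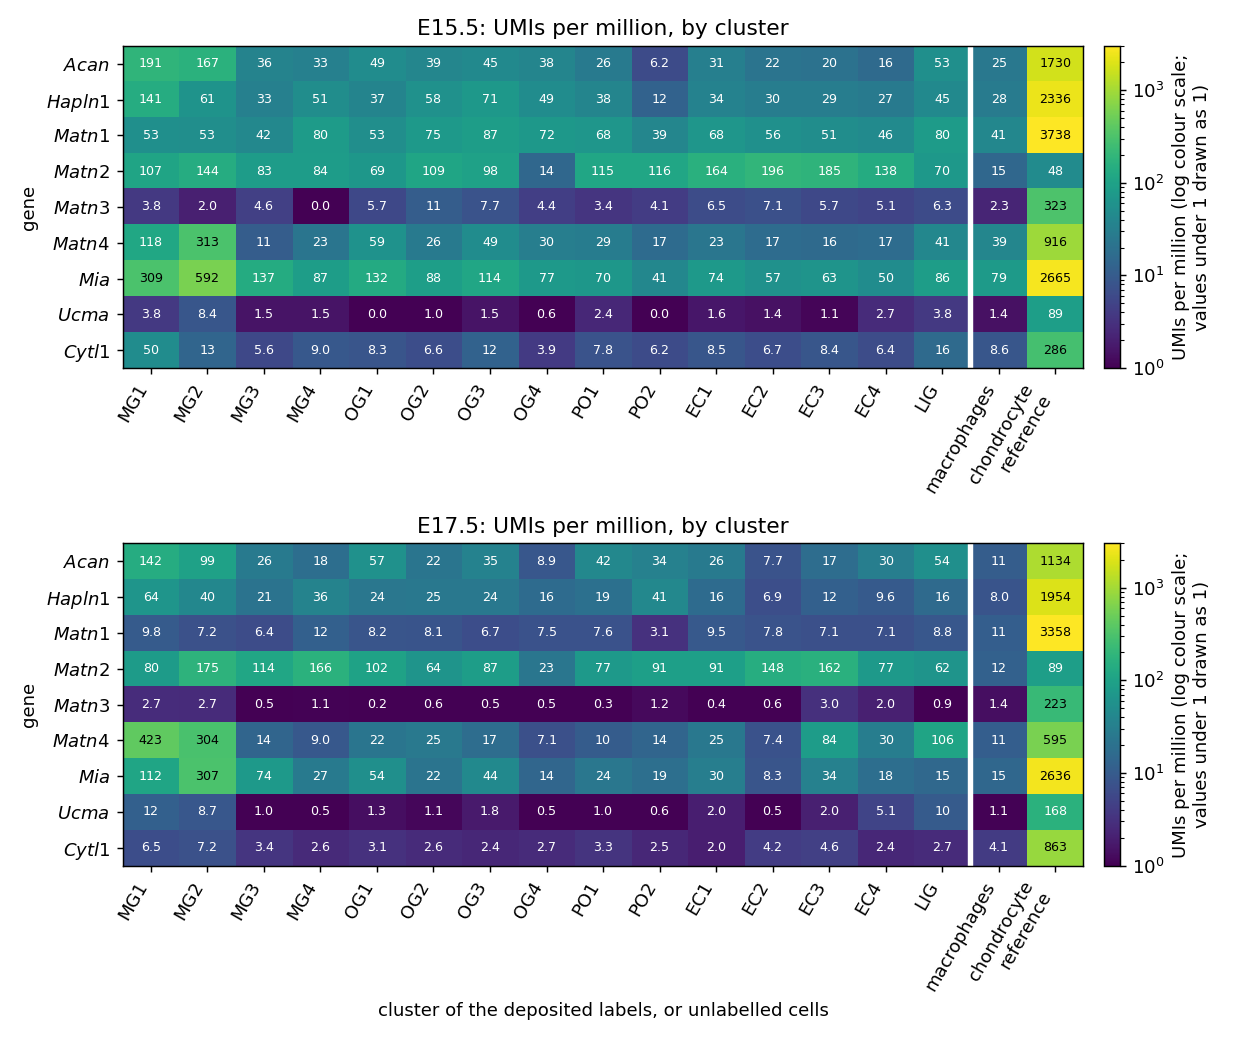
Level of each gene (rows) in each of the 15 labelled clusters, in macrophages and in the chondrocyte reference (columns), in CPM on a log colour scale, for E15.5 (top) and E17.5 (bottom). *Acan*, *Matn4* and *Mia* stand out in MG1 and MG2, the row of *Matn1* is nearly even across the clusters, and *Matn2* is spread over most of them.

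MG1 or MG2 had the highest level of most of these genes. Relative to all other labelled cells, 5 of the 9 genes were at least 2-fold higher in MG1 and MG2 together at E15.5 and 1 was at least 2-fold lower, where 6.46% and 13.3% of the 14232 genes with at least 20 UMIs reached these limits. At E17.5, 7 of the 9 were at least 2-fold higher and 0 lower, against 6.05% and 8.89% of 14370 genes. The median ratio of the 9 genes was 2.02 at E15.5 and 3.81 in the E17.5 library, and that of all genes was 0.911 and 0.970. All 9 had at least 20 UMIs in these comparisons.

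*Acan*, which encodes aggrecan, reached 191 CPM (142 to 252) in MG1 and 167 (153 to 182) in MG2 at E15.5. The E17.5 levels were 142 CPM (132 to 153) in MG1 and 99.0 (90.3 to 108) in MG2. In MG1 and MG2 together it was 5.79-fold (5.23 to 6.40) and 3.81-fold (3.56 to 4.07) above the other labelled cells. In macrophages *Acan* had 24.8 CPM at E15.5 and 10.5 in the E17.5 library. No other cluster reached the level of MG1 or MG2 in either library.

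Outside MG1 and MG2, the *Acan* levels of LIG and OG1 were similar in both libraries, and those of some other clusters differed. At E15.5 the clusters outside MG1 and MG2 ranged from 6.20 CPM in PO2 to 53.2 in LIG. LIG was 2.15-fold (1.66 to 2.79) above macrophages. OG1 had 49.4 CPM, 1.995-fold (1.474 to 2.702) the macrophage level, PO1 had 25.95 CPM and EC2 21.93 CPM. Some of these values rested on a few cells. With labelled cells of 3 or more *Matn1* UMIs left out, LIG had 43.9 CPM, OG1 was highest of the remaining clusters with 49.7, and OG2, OG3 and OG4 fell from 39.3, 44.8 and 38.1 CPM to 15.1, 16.2 and 12.2 CPM. At E17.5 the next clusters after MG1 and MG2 were OG1 with 56.7 CPM (52.5 to 61.2), LIG with 53.7 (49.0 to 58.6) and PO1 with 42.1 (37.5 to 47.1), which were 5.40-fold, 5.11-fold and 4.01-fold above macrophages. The intervals of OG1 and LIG overlapped, and the lowest clusters were OG4 with 8.86 CPM and EC2 with 7.67, 0.843-fold (0.612 to 1.17) and 0.730-fold (0.509 to 1.04) the macrophage level. The higher ratios of OG1 and LIG in the E17.5 library reflect the lower macrophage level there, given above, with little change in their own CPM. OG1 had 48.0, 55.2 and 60.1 CPM and LIG 76.6, 54.3 and 51.4 CPM in the 3 barcode suffixes of E17.5.

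*Hapln1*, the link protein, was higher in MG1 and MG2 by a smaller factor. MG1 and MG2 had 141 CPM (99.5 to 195) and 60.6 (52.1 to 70.2) at E15.5 and 64.1 (57.6 to 71.2) and 40.3 (34.8 to 46.3) in the E17.5 library. Together they were 1.84-fold (1.59 to 2.12) above other labelled cells at E15.5, short of the limit, and 2.74-fold (2.48 to 3.02) at E17.5. With labelled cells of 3 or more *Matn1* UMIs left out, the E15.5 ratio was 2.26 (1.92 to 2.65), past the limit. OG3, with 71.1 CPM, lay above MG2 at E15.5 with overlapping intervals, but without those cells OG3 had 34.05 CPM (24.5 to 46.0) and MG2 55.5 (47.3 to 64.9). At E17.5 PO2 had 41.4 CPM, with an interval overlapping that of MG2. Macrophages had 27.7 and 7.96 CPM.

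The matrilin genes parted into 3 patterns. *Matn4* was highest in MG1 and MG2, with 118 CPM in MG1 (80.4 to 168) and 313 in MG2 (293 to 334) at E15.5 and 423 (406 to 441) and 304 (288 to 320) in the E17.5 library. MG1 and MG2 together were 12.53-fold (11.5 to 13.7) and 13.1-fold (12.4 to 13.8) above the other labelled cells. The other meningeal clusters, which carry more of the dura markers, had far less, with 10.7 and 13.7 CPM in MG3 and 22.6 and 8.95 CPM in MG4, against 39.5 and 11.1 CPM in macrophages. Of these, only MG3 at E17.5 lay above macrophages, with an interval of the ratio that holds 1 (0.769 to 1.93). Of the exonic bases of *Matn4*, 149 overlap exons of *Rbpjl* on the other strand.

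At E17.5, 8 of the 15 clusters had at least 2-fold more *Matn4* than macrophages, and after MG1 and MG2 the ratio was highest in the ligament-like LIG and the ectocranial EC3. LIG had 106 CPM (99.2 to 113) and EC3 84.3 (72.0 to 98.1), 9.52-fold (7.51 to 12.2) and 7.59-fold (5.74 to 10.1) above macrophages, whereas at E15.5 they had 40.9 and 16.1 CPM, ratios of 1.04 (0.820 to 1.31) and 0.409 (0.325 to 0.515). The other clusters past 2-fold at E17.5 were EC4 (2.68), OG2 (2.28), EC1 (2.24) and OG1 (2.01). At E17.5 the summed ligament markers given above were also high in LIG and MG1, but in MG1 1 marker gave 703.6 of the 772.5 CPM. Other clusters did not follow this sum. EC4 had 487 CPM of these markers and 29.8 of *Matn4*, and EC3 93.9 and 84.3. The part of these markers in the *Matn4* level was not tested. In LIG the level was even over the E17.5 barcode suffixes, at 112, 106 and 104.8 CPM. In EC3 it was 11.8 CPM (3.21 to 30.1) in the 35 cells of suffix 1 and 95.5 and 104.9 CPM in the 93 and 66 cells of the other suffixes. At E15.5, 8 of the 15 clusters had less *Matn4* than macrophages with the interval below 1.

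*Matn1* varied less between clusters than *Matn4*. It ranged from 39.2 CPM in PO2 to 87.3 in OG3 at E15.5 and from 3.09 in PO2 to 11.6 in MG4 in the E17.5 library, against 40.6 and 10.96 CPM in macrophages. In neither library were the intervals of neighbouring clusters in this order apart, and OG3 at E15.5 was the only cluster at least 2-fold above macrophages, with 2.15 (1.66 to 2.77). That value rested on few cells. Of the 140 OG3 cells, 4 had 3 or more *Matn1* UMIs, with up to 36 in 1 cell. The other 136, chosen by *Matn1* itself, had 31.6 CPM. MG1 and MG2 were 0.880-fold (0.749 to 1.03) and 1.11-fold (0.882 to 1.39) the level of the other labelled cells. Of the labelled cells, 30 of 5335 at E15.5 and 0 of 6830 in the E17.5 library had 10 or more *Matn1* UMIs.

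*Matn3* was rare, with 7 UMIs in MG1 and MG2 at E15.5 (2.17 CPM) and 28 at E17.5 (2.71 CPM), against 2.30 and 1.35 CPM in macrophages. Relative to the other labelled cells it was lower at E15.5, by a ratio of 0.347 (0.138 to 0.725), and higher at E17.5, by 4.05 (2.47 to 6.49), but the ratios to macrophages were 0.941 (0.290 to 2.97) and 2.00 (0.919 to 4.82). A difference between MG1 and MG2 and macrophages was not detectable for *Matn3* at this depth.

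*Matn2* followed neither pattern. It was highest in the ectocranial EC2 and EC3 at E15.5, with 196 and 185 CPM, and in MG2, MG4, EC3 and EC2 at E17.5, with 175, 166, 162 and 148 CPM, and lowest in OG4 with 14.4 and 23.2 CPM. In 14 of the 15 clusters it was at least 2-fold above macrophages in both libraries, OG4 being the exception. MG1 and MG2 were 1.00-fold (0.911 to 1.10) and 1.46-fold (1.38 to 1.55) the level of the other labelled cells. *Matn2* shares 70 exonic bases with 9430069I07Rik on the other strand.

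**Figure D2:**
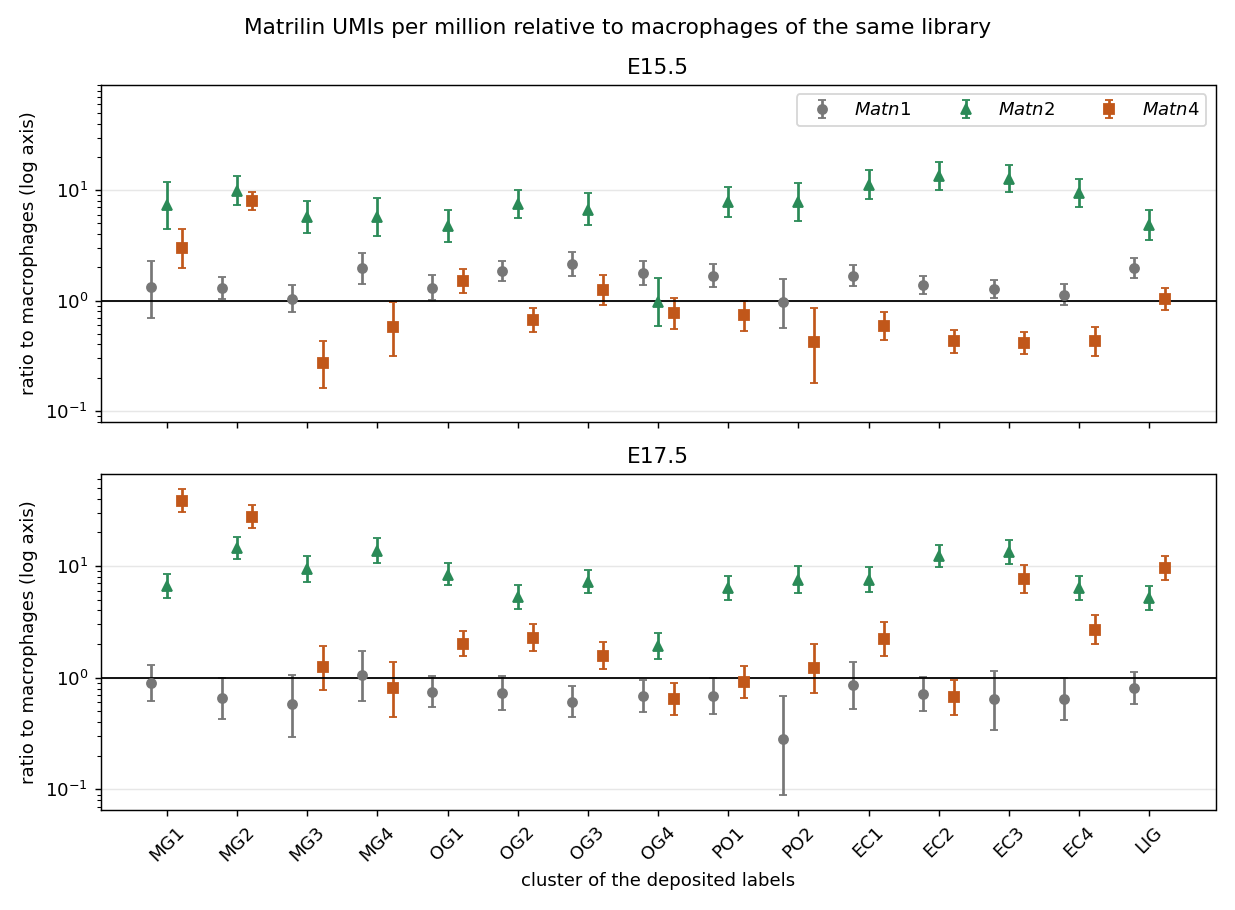
Level of *Matn1*, *Matn2* and *Matn4* in each labelled cluster relative to macrophages of the same library, on a log axis, with exact conditional 95% intervals, for E15.5 (top) and E17.5 (bottom); the line marks a ratio of 1. *Matn1* lies between 0.966 and 2.15 at E15.5 and between 0.282 and 1.06 in the E17.5 library, *Matn2* lies above 1 in all clusters but OG4 at E15.5, and *Matn4* rises in MG1 and MG2 and, at E17.5, in LIG and EC3.

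Of the small secreted proteins, *Mia* and *Ucma* were higher in MG1 and MG2 and *Cytl1* by a small margin. *Mia* reached 309 CPM (246 to 384) in MG1 and 592 (564 to 620) in MG2 at E15.5 and 112 (103 to 121) and 307 (291 to 323) in the E17.5 library, 7.68-fold (7.25 to 8.13) and 7.02-fold (6.61 to 7.44) above the other labelled cells for both clusters together. MG3 followed at E17.5 with 74.0 CPM and OG1 with 54.5 CPM, which were apart from each other, and macrophages had 78.6 and 14.7 CPM. *Mia* shares 410 exonic bases on its own strand with Gm21983, which had 1 UMI in labelled cells of E15.5 and 0 at E17.5. Reads from the shared bases cannot be told apart.

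*Ucma*, a calcium-binding cartilage protein, had few UMIs. MG1 and MG2 held 26 at E15.5 (8.05 CPM) and 107 at E17.5 (10.3 CPM), 5.07-fold (3.11 to 8.04) and 4.41-fold (3.45 to 5.61) above the other labelled cells. At E17.5 LIG had 10.1 CPM, with an interval overlapping those of MG1 (11.8) and MG2 (8.68). Macrophages had 1.44 and 1.05 CPM. *Cytl1*, a cytokine-like protein, had 16.4 CPM in MG1 and MG2 at E15.5 and 6.86 in the E17.5 library, 2.02-fold (1.48 to 2.70) and 2.35-fold (1.78 to 3.08) above the other labelled cells but only 1.90-fold (1.19 to 3.08) and 1.69-fold (1.07 to 2.74) above macrophages. At E15.5 *Cytl1* rested in part on 1 MG1 cell, and with labelled cells of 3 or more *Matn1* UMIs left out its ratio to the other labelled cells was 1.83 (1.26 to 2.58), under the limit. LIG had 15.8 CPM of *Cytl1* at E15.5, with an interval overlapping that of MG2 (13.5).

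Set against macrophages, 6 of the 8 genes with at least 20 UMIs were at least 2-fold higher in MG1 and MG2 at E15.5, where 20.6% of all genes tested were, and 7 of 9 at E17.5, where 23.5% were. *Matn3* is among the 7 with its ratio of 2.00. The other labelled cells exceeded macrophages 2-fold in 2 of the 9 genes at E15.5 (*Matn2* and *Matn3*) and in 5 at E17.5 (*Acan*, *Hapln1*, *Matn2*, *Matn4* and *Ucma*), against 25.3% and 24% of all genes. Against the neighbouring MG3 and MG4, 5 of 8 genes at E15.5 and 6 of 9 in the E17.5 library were at least 2-fold higher in MG1 and MG2, where 3.89% and 5.65% of all genes were, with *Matn4* at 21.7-fold (15.6 to 31.2) and 32.2-fold (24.0 to 44.1). Of the 10 chondrocyte markers, 5 were at least 2-fold above the other labelled cells in MG2 and 7 in MG1 at E15.5 (4 and 7 at E17.5). Their summed level was 459 and 153 CPM in macrophages, 654 and 256 CPM in all labelled cells, 1174 and 414 CPM in MG2, and 1955 and 941 CPM in MG1. MG3 had 754 and 377 CPM and MG4 891 and 355 CPM, so that MG2 was little above them at E17.5. In MG3 1 and 2 of the 10 markers were at least 2-fold above the other labelled cells, and in MG4 1 and 3. None of the 10 was at 0 in any of these groups. The sum did not follow these genes in all clusters. OG4, with 38.1 and 8.86 CPM of *Acan*, had a sum of 2314 and 479 CPM, of which *Col11a2* gave 1656 and 358. In MG1 at E15.5, 1 cell held 102 of the 188 *Col2a1* UMIs. The part of the markers in the levels was not tested. Summed macrophage markers were 22.9 and 21.9 CPM in MG1 and MG2 at E15.5 and 127 and 130 CPM in the E17.5 library.

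The proportion of the genes to *Matn1* differed between macrophages and the pair MG1 and MG2. For each *Matn1* UMI, macrophages held 0.610 (0.461 to 0.803) UMIs of *Acan* at E15.5 and 0.959 (0.681 to 1.35) in the E17.5 library, and MG1 and MG2 3.19 (2.68 to 3.81) and 14.2 (11.4 to 17.8). For *Matn4* the values were 0.972 and 1.01 in macrophages and 5.61 (4.77 to 6.65) and 42.7 (34.6 to 53.3) in MG1 and MG2. The reference was chosen by its *Matn1* UMIs, so its own proportions to *Matn1* are not compared. The part of free RNA in these levels was not tested.

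The reference held far more of each gene except *Matn2*. Of the 8 genes other than *Matn1*, 7 were at least 2-fold higher in the reference than in labelled cells in both libraries and 1 was at least 2-fold lower at E15.5, where 29.5% and 28.5% of all genes differed by 2-fold either way. The median ratios of the 8 were 38.5 and 53.2, against 0.914 and 0.936 for all genes. *Hapln1* had 2336 CPM at E15.5 and 1954 in the E17.5 library in the reference, *Mia* 2665 and 2636 and *Acan* 1730 and 1134. *Matn2*, the exception, had 48.2 and 88.8 CPM, 0.343-fold (0.317 to 0.370) and 0.993-fold (0.857 to 1.14) of the labelled cells. Of the 7, *Matn4* came closest to its reference level in MG1 and MG2, with 423 CPM in MG1 against 595 CPM at E17.5. Cells just under the *Matn1* limit, with 8 or 9 UMIs, had 576 and 548 CPM of *Acan*, and those just above it, with 10 or 11, had 1248 and 782 CPM.

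**Figure D3:**
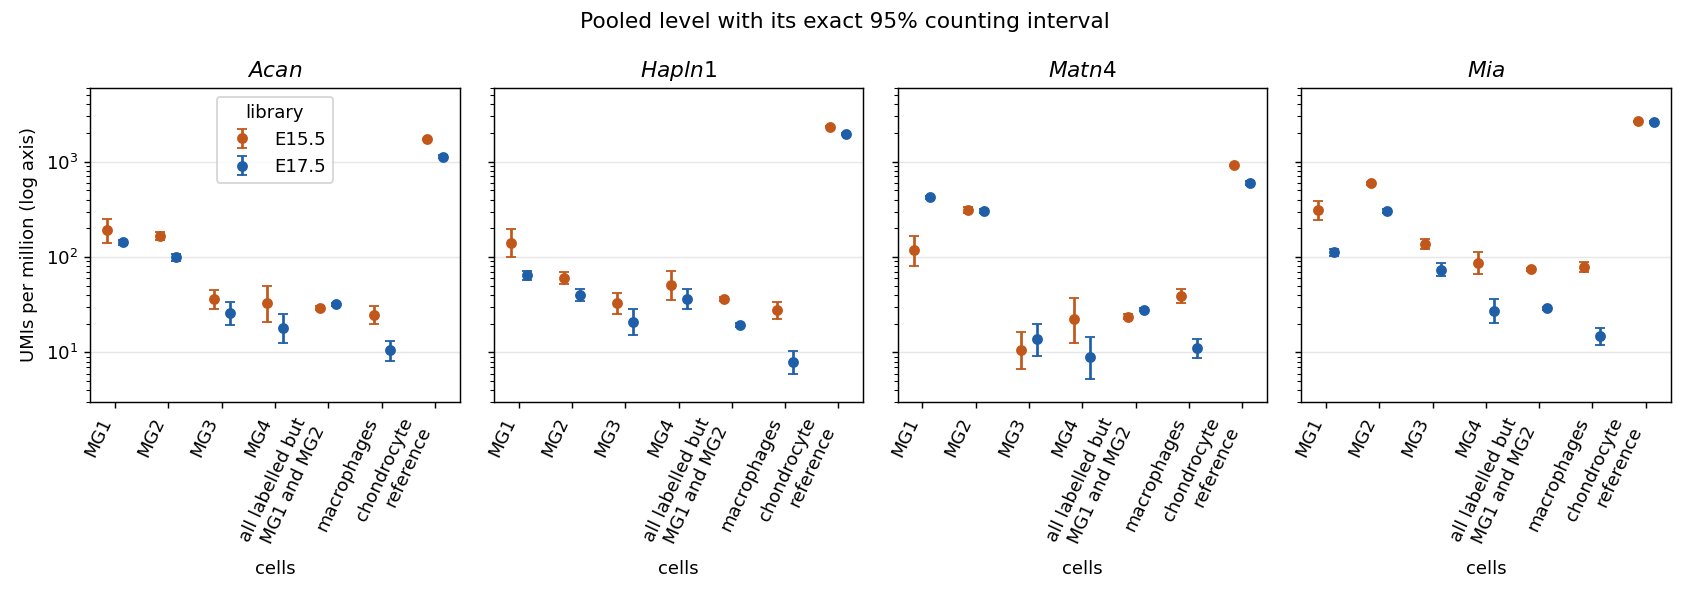
Level of *Acan*, *Hapln1*, *Matn4* and *Mia* in the 4 meningeal clusters, all labelled cells but MG1 and MG2, macrophages and the chondrocyte reference, in CPM on a log axis; points are pooled levels and bars exact 95% counting intervals, for E15.5 and E17.5. For *Matn4*, MG3 and MG4 lie below macrophages at E15.5 and near them at E17.5, and the reference lies above MG1 and MG2 for all 4 genes.

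MG1 and MG2 also differed from each other gene by gene. At E17.5, 0 of the 9 genes were at least 2-fold higher in MG1 and 2 at least 2-fold lower, *Matn2* with a ratio of 0.456 (0.405 to 0.512) and *Mia* with 0.365 (0.332 to 0.401), where 7.9% of 11284 genes differed by 2-fold either way. *Acan*, *Hapln1* and *Matn4* were higher in MG1 by less than 2-fold, with ratios of 1.44 (1.28 to 1.61), 1.59 (1.33 to 1.91) and 1.39 (1.30 to 1.49). At E15.5, 4 of the 8 genes with at least 20 UMIs differed by 2-fold, against 15.2% of 8853 genes. *Hapln1* (2.33) and *Cytl1* (3.68) were higher in MG1 and *Matn4* (0.378) and *Ucma* (0.453) lower, and the interval for *Ucma* ran from 0.0110 to 2.77.

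MG1 had only 28 cells at E15.5, and 1 of them carried much of the signal. That cell held 24 of the 50 *Acan* UMIs, 19 of 37 of *Hapln1*, 10 of 13 of *Cytl1* and 9 of 31 of *Matn4*, together with 102 *Col2a1* UMIs and 8 *Matn1* UMIs, and its Scrublet doublet score was above the 94th percentile. Without it, the only MG1 cell with 3 or more *Matn1* UMIs, MG1 had 106 CPM of *Acan*, 73.5 of *Hapln1*, 12.2 of *Cytl1* and 89.8 of *Matn4*. With such cells left out of both clusters, the ratio of MG1 to MG2 became 0.645 (0.417 to 0.957) for *Acan*, 1.32 (0.764 to 2.16) for *Hapln1* and 1.03 (0.203 to 3.28) for *Cytl1*, and stayed low for *Matn4* at 0.286 (0.179 to 0.436). Whether the cell is a doublet was not tested.

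At E17.5 the differences stood within the barcode suffixes that hold MG1, which has 193 cells in suffix 2, 230 in suffix 3 and 0 in suffix 1. *Matn4* had 372 and 464 CPM in MG1 against 299 and 271 CPM in MG2, *Acan* 140 and 144 against 98.8 and 92.7 CPM, and *Hapln1* 72.4 and 57.5 against 43.8 and 42.0 CPM. *Mia* went the other way in both, with 126.5 and 100.3 CPM in MG1 against 276.6 and 276.5 CPM in MG2. The suffixes are not assigned to batches or litters in the data, so they are no biological replicates.

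**Figure D4:**
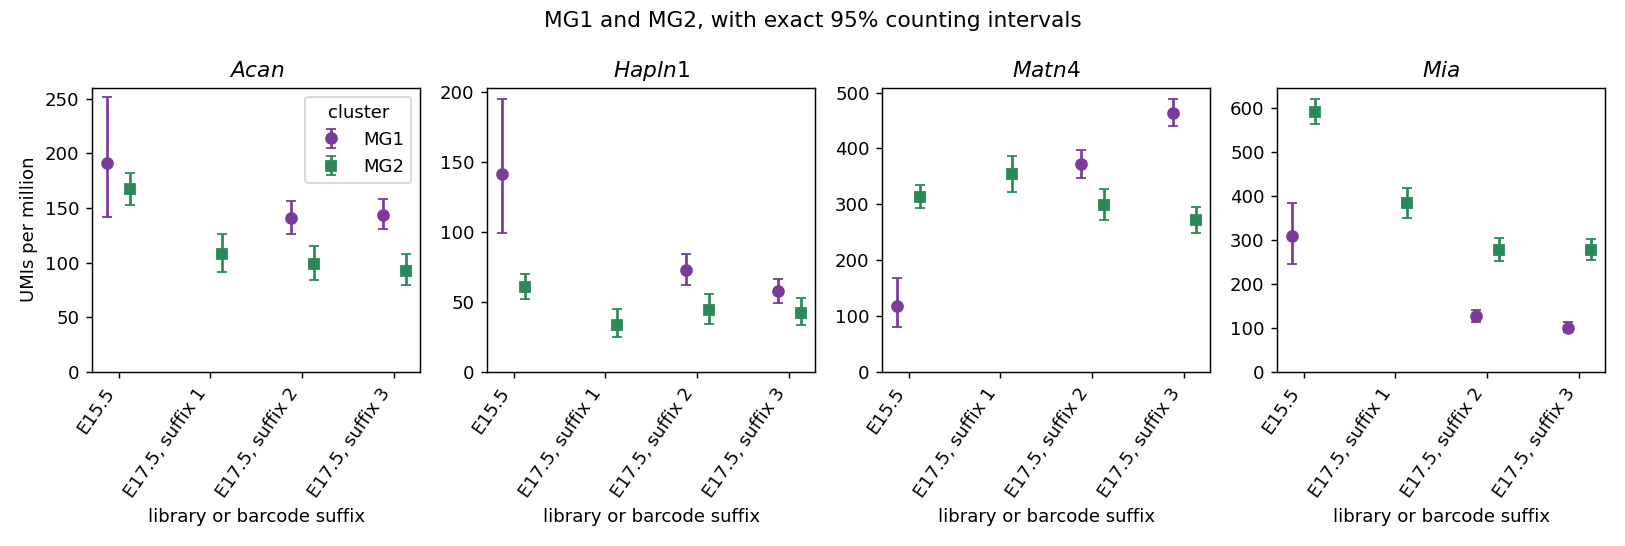
Level of *Acan*, *Hapln1*, *Matn4* and *Mia* in MG1 (circles) and MG2 (squares) at E15.5 and in each barcode suffix of E17.5, in CPM, with exact 95% counting intervals; MG1 has no cell in suffix 1. *Matn4* is lower in MG1 at E15.5 and higher in both suffixes in the E17.5 library, while *Mia* is lower in MG1 throughout.

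The genes were spread over many MG1 and MG2 cells at low counts. After each cell was thinned to 3000 UMIs, a *Matn4* UMI was seen in 53.1% of MG2 cells at E15.5 (47.6 to 58.5) and in 56.97% of MG1 cells (52.1 to 61.7) and 46.7% of MG2 cells (42.2 to 51.3) at E17.5, against 7.94% and 2.76% of macrophages. For *Mia* the shares were 74.8% of MG2 cells at E15.5 and 23.9% of MG1 and 52.9% of MG2 cells in the E17.5 library, against 17.8% and 4.66% of macrophages. *Acan* was seen in 39.6% of MG2 cells at E15.5 and in 33.3% and 23.7% of MG1 and MG2 cells in the E17.5 library, against 5.08% and 3.45% of macrophages. In the reference the share was at least 77.3% for each of *Acan*, *Hapln1*, *Matn4* and *Mia* in both libraries. For the 27 MG1 cells at E15.5 deep enough, 6 had a *Matn4* UMI in this draw and 4.67 were expected over all draws.

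Few MG1 and MG2 cells carried all 4 genes. Of the MG1 and MG2 cells thinned, 5.16% at E15.5 and 0.893% in the E17.5 library had a UMI of each of *Acan*, *Hapln1*, *Matn4* and *Mia*, against 88.6% and 65.2% of reference cells and 0.317% and 0.173% of macrophages, while 11.96% and 18.1% had none of the 4, against 69.5% and 87.9% of macrophages. At E17.5 *Acan* was seen as often in MG1 and MG2 cells with a *Matn4* UMI (28.6%, 24.5 to 32.9) as in those without (27.9%, 23.7 to 32.4), to within counting error. At E15.5 the shares were 44.9% (37.7 to 52.4) and 32.0% (25.3 to 39.4). In MG2 alone they were 43.65% (36.3 to 51.2) and 35% (27.6 to 42.9), with overlapping intervals, and in MG1 5 of 6 and 2 of 21 cells. The median *Matn4* count of reference cells, 3 UMIs at E15.5 and 2 in the E17.5 library, was reached by 13.3% and 27.1% of MG1 and MG2 cells, while that of *Hapln1*, 7 and 5 UMIs, was reached by 0 of 368 and 0 of 896, which allow shares of up to 0.815% and 0.335%.

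**Figure D5:**
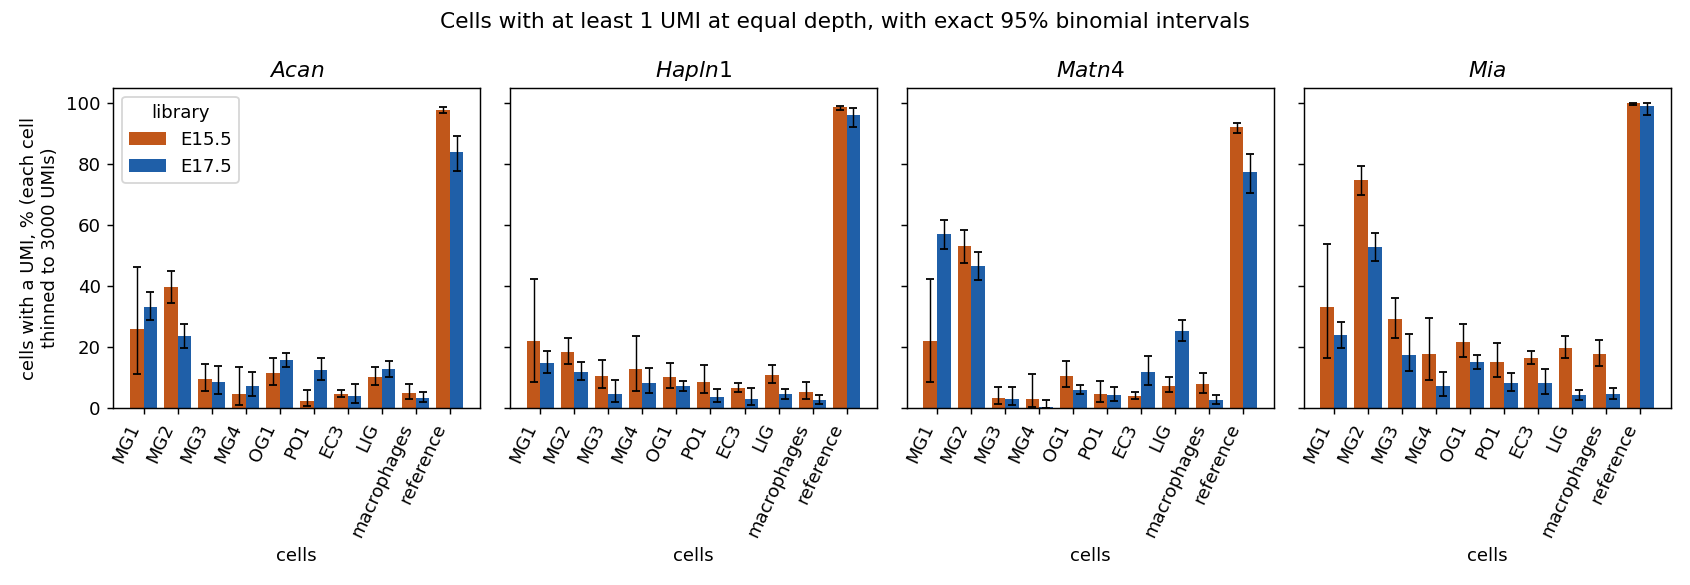
Share of cells with at least 1 UMI of *Acan*, *Hapln1*, *Matn4* and *Mia* after each cell was thinned to 3000 UMIs, in percent, with exact binomial 95% intervals, for E15.5 and E17.5. The share for *Matn4* is high in MG2 in both libraries, in MG1 at E17.5 and, less so, in LIG at E17.5, and the reference is above MG1 and MG2 for every gene.

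Other cartilage genes were higher in MG1 and MG2 in part. Of 24 further cartilage genes on a list, 23 had enough UMIs. Among these, 12 at E15.5 and 13 in the E17.5 library were at least 2-fold higher in MG1 and MG2 than in the other labelled cells, where 6.46% and 6.05% of all genes were. At least 2-fold lower were 2 and 4, where 13.3% and 8.89% of all genes were. The median ratios were 2.14 and 2.20. The highest ratios at E17.5 were those of *Epyc* (11.5), *Chad* (10.9) and *Cnmd* (8.51), which encode matrix proteins of cartilage, and *Col9a2* (5.36), a chain of type IX collagen. For some of these genes MG2 lay below other clusters at E17.5. *Col9a2* had 129 CPM in MG4, against 185 in MG1 and 65.3 in MG2. *Cnmd* had 35.55 CPM in EC3, against 136 in MG1 and 29.95 in MG2. *Epyc* was not particular to MG1 and MG2. At E15.5 MG3 and MG4 had 159 and 202 CPM of it, against 87.8 in MG1 and 55.6 in MG2. At E17.5 MG1 had 233 CPM, MG3 112, MG4 79.0 and MG2 41.1, and the chondrocyte reference only 38.3. The lowest ratios at E17.5 were those of *Ihh* (0.0790), a hedgehog ligand, and *Col11a2* (0.359). Both rested in part on OG4, which held 836 of the 1207 *Ihh* UMIs and 3755 of the 4846 *Col11a2* UMIs of the other labelled cells. *Col11a2* had 23.4 CPM in MG1 and 18.6 in MG2, and from 12.8 in LIG to 22.1 in MG3 in the other clusters except OG4. *Col2a1*, the main collagen of cartilage, was 2.23-fold and 2.72-fold higher and *Sox9*, a transcription factor that drives it, 4.46-fold and 3.96-fold. At E15.5 *Col2a1* had 718 CPM in MG1 and 334 in MG2, against 248 in MG3, 268 in MG4 and 273 in OG4. At E17.5 MG3 had 72.5 CPM of it, between MG1 with 104 and MG2 with 59.3. *Col2a1* in MG1 and MG2 was 3.06-fold and 2.21-fold above macrophages.

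Genes with the most similar levels were sought among 12150 genes by the smaller of both libraries' correlations of log2(CPM + 1) over the 15 clusters. The clusters share libraries, depth and free RNA, and the values are a description. *Matn4* was nearest to *Gria1* (r = 0.809 at E15.5 and 0.925 in the E17.5 library), *Kcns1* and *Lect1*, the older symbol of *Cnmd*. *Acan* was nearest to *Atp8a2* (0.804 and 0.932), *Prdm11* and *Slc40a1*, and *Mia* to *Mylk* (0.854 and 0.811), *Atp8a2* and *Col9a3*. *Hapln1* was nearest to *Unc5c* (0.707 and 0.881), *Akap17b* and *Col9a1*, and *Matn2* to *Plpp3* (0.888 and 0.867), *Ptpra* and *Sgce*.
For the genes with few UMIs, *Ucma* was nearest to *Frk* (0.764 and 0.836), *Zfp275* and *Abhd14a*, and *Cytl1* to *Col9a3* (0.786 and 0.851), *Lect1* and *Tctn3*. The lowest values were those of *Matn1*, nearest to *Lnx2* (0.597 and 0.592), *Txnl4b* and *Slc25a26*, and of *Matn3*, nearest to *March7* (0.715 and 0.686), *Cys1* and *Zbtb24*. Among the 9 genes themselves, *Acan* varied with *Mia* (0.918 and 0.721) and *Matn4* (0.837 and 0.757), and *Matn1* with *Acan* only at 0.261 and 0.0439.

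Between the libraries, 0 of the 9 genes were at least 2-fold higher in MG1 and MG2 at E17.5 than at E15.5 and 3 at least 2-fold lower, where 8.56% and 5.62% of 11700 genes were. The 3 were *Matn1* with a ratio of 0.163 (0.124 to 0.211), *Mia* with 0.357 (0.335 to 0.380) and *Cytl1* with 0.418 (0.289 to 0.609). The same comparison in macrophages gave 6 of 7 genes at least 2-fold lower, where 7.56% of all genes were, with 0.270 for *Matn1*, 0.187 for *Mia* and 0.469 for *Cytl1*. For *Matn4* the ratio was 1.24 (1.15 to 1.33) in MG1 and MG2 and 0.282 (0.209 to 0.376) in macrophages. MG1 gave 28 of the 378 MG1 and MG2 cells at E15.5 and 423 of 896 in the E17.5 library, so these ratios mix the clusters in unlike shares. In MG2 alone *Matn4* had 313 and 304 CPM, with no rise. *Mia* had 592 and 307 CPM there and *Cytl1* 13.5 and 7.23, both less than 2-fold apart. Chondrocyte reference cells made up 41.6% of the unlabelled cells at E15.5 and 9.34% in the E17.5 library, and the part of this difference in the levels was not tested.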

How the data were processed

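The 9 genes, the cartilage list and the marker lists were chosen with earlier results of these data known. The authors deposited UMI counts per gene and barcode for both libraries, made with Cell Ranger against mm10 (GRCm38), and a table of cluster labels made with Seurat 3.2.0. The study's methods give another Cell Ranger version than the 3.1.0 in the header of the E15.5 matrix. The E15.5 matrix lacks 5 of the 5340 cells in the table, and its totals differ from those in the table in all 5335 others, whereas those of E17.5 are identical.

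Unlabelled cells were dropped below 1000 UMIs or 1000 genes, above 7.5% of mitochondrial UMIs, or above 3% of Hba or of Hbb UMIs, which left 2875 cells in the E15.5 library and 1937 in the other. Labelled cells were all used, 93 of them outside these limits at E15.5, with 48607817 and 92585034 UMIs in all. Levels are sums of UMIs per cluster over the cluster's total. Ratios have exact conditional binomial 95% intervals, shares exact Clopper-Pearson ones, and a gene was called at 2-fold with at least 20 UMIs in both groups together. A count of 0 was read as allowing 3. For shares, cells under 3000 UMIs were left out (10 of the 378 MG1 and MG2 cells, 8 of the 323 macrophages and 17 of the 1195 reference cells at E15.5, 0 at E17.5) and the others thinned to 3000. No doublet was removed, and Scrublet scores (expected rate 0.06) at or above the 94th percentile were left out as an alternative.

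The genes named are the 9, *Col2a1*, *Sox9*, the 4 highest and 2 lowest of the cartilage list at E17.5, and the 3 genes most like each of the 9. Alternatives changed the cells, the limits, the summary and the comparison group. Calls were also made on simulated pooled counts without variation between cells or batches. Such counts cannot show whether calls that rest on few cells hold. The tools were scipy 1.17.1, scanpy 1.11.5, pandas 2.3.3 and numpy 2.4.6 under Python 3.11.15, with figures from matplotlib 3.10.9. Coordinates are those of GENCODE M21.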

Additional observations from a re-analysis of the deposited data

Results flagged for a closer look

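The ratio of *Matn3* in MG1 and MG2 to the other labelled cells was 0.347 at E15.5 and 4.05 at E17.5, opposite directions in the 2 libraries, and the difference was not tested. *Matn4* in MG1 relative to MG2 was 0.378 at E15.5 and 1.39 at E17.5, again with the difference not tested.

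Outside the cell limits, 424 unlabelled barcodes of E15.5 held 10 or more *Matn1* UMIs and entered no comparison. Of these, 189 had more than 3% Hba or Hbb UMIs, 149 fewer than 1000 UMIs or genes and 233 more than 7.5% mitochondrial UMIs, with a median of 3012.5 UMIs. Their levels were 1959 CPM of *Acan*, 2742 of *Hapln1*, 1107 of *Matn4*, 3095 of *Mia* and 53.3 of *Matn2*.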

How the results depend on the processing

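Of 640 ratios recomputed, 480 stayed within the counting interval of the reported ratio, 155 left it and 5 whose reported interval was clear of 1 turned. *Matn2* in MG1 and MG2 at E17.5 was 0.894 against MG3 and MG4 only. With high Scrublet scores left out, the ratio of MG1 to MG2 at E15.5 was 0.871 for *Hapln1* and 0.370 for *Cytl1*. *Matn2* at E17.5 relative to E15.5 was 1.42 in barcode suffix 1 alone, and *Cytl1* in MG1 and MG2 at E17.5 was 0.840 against endothelial cells in place of macrophages, an alternative chosen after seeing the data. The number of genes at least 2-fold different between MG1 and MG2 fell from 4 to 2 at E15.5 with the mean of each cell's own CPM and also to 2 without the cell with the most UMIs of each gene, and from 2 to 1 at E17.5 with thinned shares. The cause was not tested. The other counts stayed within 1.5 times the reported ones. MG1 has no cell in suffix 1, so that comparison gave no value there. No paired analysis was possible because each stage is 1 library. With 28 MG1 cells at E15.5 and under 30 UMIs of *Ucma* and *Matn3* in MG1 and MG2 there, depth limits those values.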
